A study of Mus musculus with 9 samples.

Results

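The E2F and retinoblastoma family is described here in mouse oviduct tumors and normal oviducts through 10 genes: the E2F transcription factor genes E2f1, E2f2, E2f3, E2f4, E2f5, E2f7 and E2f8, and the pocket protein genes Rb1, Rbl1 and Rbl2. The members were chosen by name, and all 10 are among the 19435 genes of the deposited table. The 9 libraries hold poly-A RNA of untreated tissue: 4 primary tumors with the genotype Dicer1ko/D1693N, 3 oviducts with Dicer1+/D1693N (oviducts 1 to 3) and 2 oviducts with Dicer1+/+ (oviducts 4 and 5). DICER1 is the RNase III enzyme that cuts miRNA precursors, and D1693N lies in its RNase IIIb domain. The tumors and the first 3 oviducts thus share 1 D1693N allele, and the tumors have a ko allele in place of the wild-type one. The age of the mice, the driver that made the ko allele, and whether a library held tissue of 1 or several animals are not given in the sources used here, so p-values measure the spread between these libraries.

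E2F factors bind the promoters of genes for DNA replication and cell cycle progress, most of them as dimers with a DP partner. E2F1, E2F2 and E2F3 are known chiefly as activators, E2F4 and E2F5 as repressors that act with pocket proteins, and E2F7 and E2F8 as atypical repressors that bind DNA without DP. RB1, RBL1 (p107) and RBL2 (p130) hold E2F factors in check until cyclin-dependent kinases phosphorylate them. RBL2 with E2F4 and the MuvB proteins forms the DREAM complex of resting cells. In the oviduct, whose epithelium holds ciliated and secretory cells, E2F4 and E2F5 also act in the gene program of multiciliated cells.

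The libraries held 8504993 to 12526078 counted reads, those of tumors 8732190 to 11267144. Dicer1 had 1282.9, 741.5, 1379.2 and 576.3 normalized counts in tumors 1 to 4, against 903.9 to 1236.8 in the 5 oviducts. It was not called changed (log2 difference -0.21 ± 0.25, SE, adjusted p = 0.568), and a gene total shows neither which allele the reads came from nor a deleted exon. All 8 markers of ciliated epithelium were called lower in tumors, where their summed level was 90.44 to 821.6 normalized counts, against 18420 to 28950 in oviducts, and 4 of the 8 had no read in tumors 3 and 4. All 8 markers of dividing cells were called higher, with sums of 3936 to 6786 in tumors and 347.2 to 635.9 in oviducts, and none was at 0 in any library. Of the other lists, 4 of 6 fibroblast, 6 of 8 macrophage and 4 of 5 endothelial markers were called higher, and 4 of 8 smooth muscle and 3 of 4 mesothelial markers lower. None of the 6 T and NK cell, 3 B cell, 4 fat cell and 3 red cell markers was called. By the same rule, given below, 6.53% of all genes were called higher and 12.1% lower. Secretory markers summed to 16960 to 29290 in tumors and 91650 to 169300 in oviducts, with 2 of 8 called higher and 1 lower. The gene called lower, Ovgp1, had a mean of 6980 normalized counts in tumors and 96300 in oviducts. It made up most of the sum in oviducts, so the fall of the sum was mostly that of this gene. Tumor 1 stood apart by its smooth muscle sum (56961.9, within the oviduct range) and its red cell sum (41121.7), and tumor 4 by its fat cell sum (28070.7). In bulk tissue, fewer cells of a type and less RNA per cell cannot be told apart, and the part of these markers in the results on the family was not tested.

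The promoters are shown for the E2F motif, because E2F genes are themselves known as E2F targets. RefSeq promoters (GRCm38.p6, 250 bases before to 50 after a start site) were matched for 7 of the 10 members, all but E2f4, E2f5 and Rb1. They were searched on both strands for TTTCCCGC, TTTCGCGC, TTTGCCGC and TTTGGCGC. One of these stood in 4 of the 7 members (57.14%), in 16 of 31 listed E2F target genes with a promoter (51.61%) and in 704 of all 27025 genes with one (2.6%). A gene counted if any of its promoters held a match, and E2f3 and E2f2 each had another promoter without one. The windows with a match, on the strand of each gene and with the match in capitals, none overlapping another, were as follows.
E2f3 (chr13:29986037-29986104, minus strand): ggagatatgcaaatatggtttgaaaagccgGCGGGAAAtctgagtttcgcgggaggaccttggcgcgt
E2f7 (chr10:110745211-110745278, plus strand): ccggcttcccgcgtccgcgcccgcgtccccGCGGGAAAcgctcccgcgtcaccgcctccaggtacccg
Rbl1 (chr2:157204515-157204582, minus strand): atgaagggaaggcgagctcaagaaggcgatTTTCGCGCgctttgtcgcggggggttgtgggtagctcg
E2f2 (chr4:136172294-136172323, plus strand): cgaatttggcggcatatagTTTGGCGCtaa
The match began at position -11 from the start site of E2f3, -198 of E2f7, -18 of Rbl1 and 39 of E2f2, counted with the start site as 0. A match is a string of letters and not a measured binding site. The 4 genes with a match include 2 that were called higher in tumors (E2f3 and E2f7) and 2 that were not called (E2f2 and Rbl1). The promoters searched for E2f1 and E2f8, both called higher, held none of the 4 strings. For E2f1 the only start site with a promoter lay inside the annotated gene (window around chr2:154569387-154569486, minus strand). The bases before the upstream end of that gene, at 154569892, were therefore not searched, and a match there is not excluded.

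Tumors had more E2f1, E2f3, E2f7 and E2f8 RNA than oviducts, with mean levels 3.28, 3.33, 4.72 and 4.48 times as high, and these 4 of the 10 members were called higher. No member was called lower. Rbl2 and Rb1 had means of 0.629 and 0.791 times the oviduct mean, and passed the adjusted p but not the size threshold. A call needed both an absolute log2 difference of at least 1 and an adjusted p under 0.05, from limma's moderated test of the deposited values with Benjamini-Hochberg adjustment over all 19435 genes. Under this rule 6.53% of all genes were called higher and 12.1% lower. By adjusted p alone 4 members were higher and 2 lower, where 12.6% and 18.5% of all genes were. The members' median log2 difference was 0.47, beside -0.05 for all genes. In 6 members no tumor overlapped an oviduct, with tumors higher in 4 and lower in 2, while 10.8% of all genes had all tumors higher and 16.8% all tumors lower. The 4 higher calls held in each of the 15 alternative settings and left-out libraries. At an unadjusted p under 0.05, 6 members were higher and 2 lower, where 18.1% of all genes were higher and 24.0% lower. limma-voom on the reads also called 4 members higher and 0 lower, where it called 5.26% of all genes higher and 16.7% lower.

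**Figure D1:**
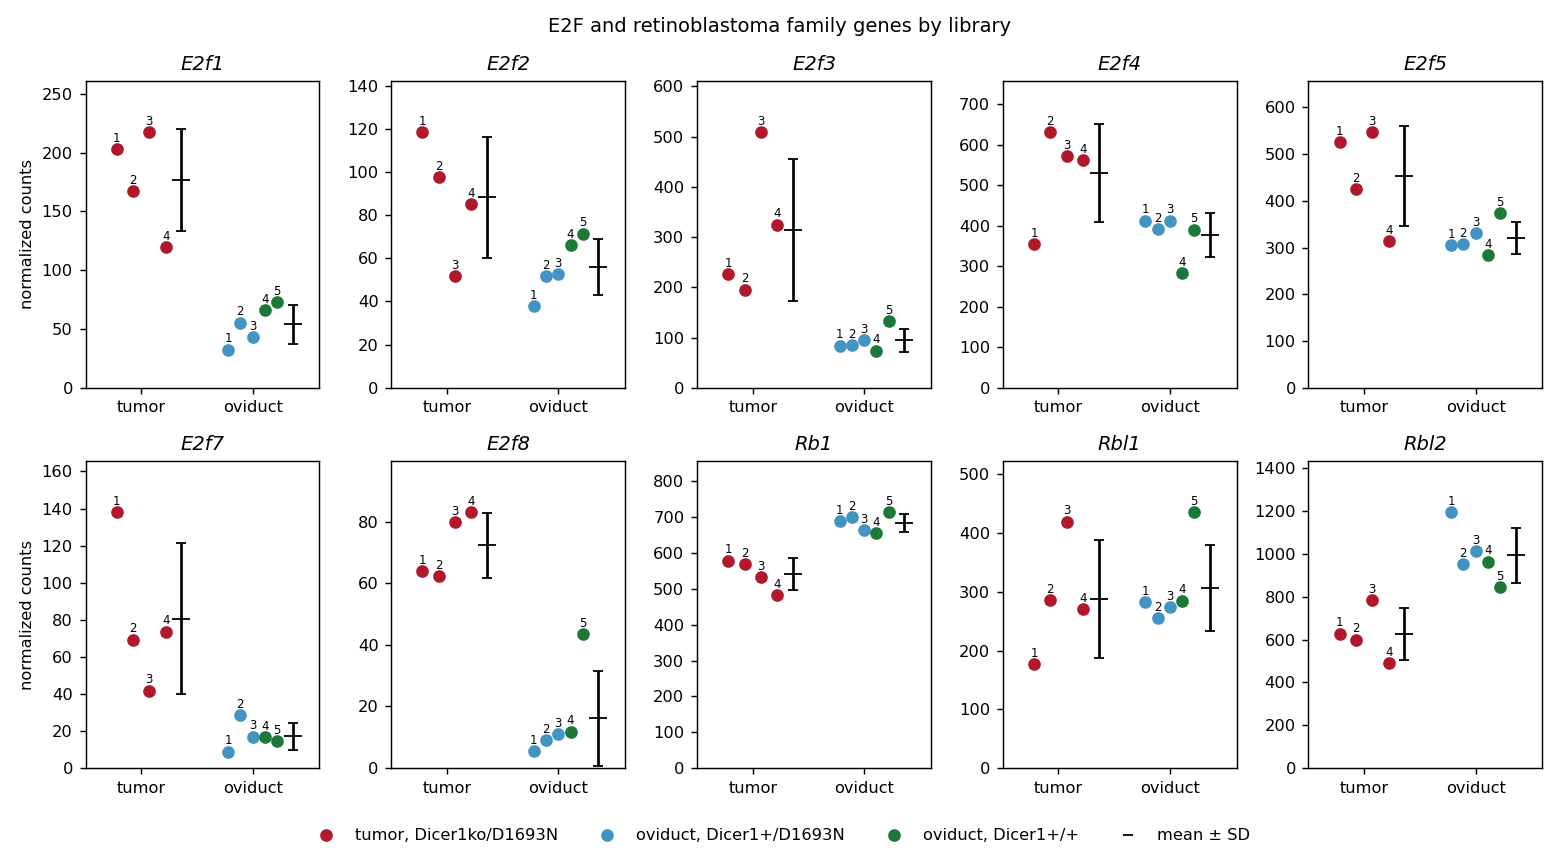
Normalized counts of the 10 family genes (y axis, linear, each panel from 0) in the 4 tumors and the 5 oviducts (x axis). Points are libraries with their replicate number, bars are mean ± SD, and tumors do not overlap oviducts for E2f1, E2f3, E2f7, E2f8, Rb1 and Rbl2.

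Among the activators, E2f1 and E2f3 were called higher and E2f2 was not. E2f1 (chromosome 2, 154559407-154569892, minus strand, GRCm38), whose protein was the first E2F to be cloned, had 203.0, 166.9, 217.3 and 119.9 normalized counts in tumors 1 to 4, against 32.4, 55.4, 42.8, 66.0 and 72.6 in oviducts 1 to 5. Every tumor was above every oviduct, with tumor 4 the lowest tumor and oviduct 1 the lowest oviduct. The log2 difference was 1.43 ± 0.25 (SE, adjusted p = 0.00191).

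E2f3 (chromosome 13, 29906575-29986063, minus strand), which gives a long and a short form of the protein, had 226.3, 195.3, 508.9 and 325.0 normalized counts in tumors 1 to 4, against 83.7, 84.6, 95.5, 73.9 and 132.9 in the oviducts. Tumor 3 was above every other library, and the groups did not overlap. Its log2 difference was 1.48 ± 0.28 (SE, adjusted p = 0.00265). A gene total does not separate the 2 forms, and the printed promoter window belongs to the start site at the upstream end of the annotated gene (29986063).

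E2f2 (chromosome 4, 136172394-136196057, plus strand), the third activator, had 118.5, 97.7, 51.8 and 85.2 normalized counts in tumors 1 to 4, against 38.0, 51.7, 52.7, 66.0 and 71.5 in the oviducts. Tumor 3, the highest tumor for E2f1 and E2f3, was the lowest for E2f2 and lay within the oviduct range, while the other tumors were above it. This gave a log2 difference of 0.50 ± 0.26 (SE, 95% interval -0.07 to 1.06, adjusted p = 0.167). Without tumor 3 it was 0.68 with an adjusted p of 0.0446, still under the size threshold.

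The canonical repressors were not called. E2f4 (chromosome 8, 105297663-105305370, plus strand), the E2F most bound to RBL2 in resting cells, had 355.4, 631.4, 573.1 and 562.6 normalized counts in tumors 1 to 4, against 413.0, 391.5, 412.9, 283.0 and 390.8 in the oviducts. Tumors 2 to 4 were above all oviducts, tumor 1 was within their range, and oviduct 4 was below the rest. The log2 difference was 0.45 ± 0.19 (SE, 95% interval 0.03 to 0.87, adjusted p = 0.0989).

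E2f5 (chromosome 3, 14578641-14606309, plus strand), a repressor close to E2F4 that is needed for multiciliated cells in the mouse together with it, had 525.4, 424.7, 547.2 and 314.4 normalized counts in tumors 1 to 4, against 305.9, 307.7, 331.4, 284.5 and 374.0 in the oviducts. Tumor 4 was inside the oviduct range and the other tumors were above it. A log2 difference of 0.45 ± 0.18 (SE, 95% interval 0.05 to 0.84, adjusted p = 0.0813) was fitted. The equal differences of E2f4 and E2f5 came from different libraries, since the tumor inside the oviduct range was tumor 1 for E2f4 and tumor 4 for E2f5.

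Both atypical repressors rose in tumors, and they had the highest ratios of the family. E2f7 (chromosome 10, 110745439-110787384, plus strand) had 137.9, 69.3, 41.7 and 73.6 normalized counts in tumors 1 to 4, against 8.9, 28.4, 16.9, 16.5 and 14.5 in the oviducts. Tumor 1 was the highest and tumor 3 the lowest, whereas for E2f3 tumor 3 was the highest and tumor 2 the lowest. Its log2 difference was 1.46 ± 0.30 (SE, adjusted p = 0.00479).

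E2f8 (chromosome 7, 48866429-48881596, minus strand), which acts with E2F7 in the mouse placenta and liver, had 64.1, 62.5, 79.9 and 83.1 normalized counts in tumors 1 to 4, against 5.6, 9.0, 10.9, 11.8 and 43.5 in the oviducts. The tumors lay close together, and oviduct 5 stood well above the other oviducts while still under every tumor. Tumors minus oviducts gave 1.56 ± 0.31 on the log2 scale (SE, adjusted p = 0.00401), and 1.81 without oviduct 5. In the oviducts these 2 genes rested on few reads, 8 to 38 for E2f7 and 5 to 39 for E2f8, so that the deposited scale understates their change and the level in a single oviduct is imprecise.

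None of the 3 pocket protein genes was called, and the tumor means of all 3 were below the oviduct means. Rbl2 (chromosome 8, 91070057-91123844, plus strand), the pocket protein of resting cells, had 628.3, 599.6, 783.6 and 489.0 normalized counts in tumors 1 to 4, against 1194.4, 953.0, 1013.0, 964.5 and 844.0 in the oviducts. Every tumor was below every oviduct, with tumor 3 nearest to them. At -0.66 ± 0.16 (SE, adjusted p = 0.00965), its log2 difference passed the adjusted p in all 15 alternatives and the size threshold in none.

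Rb1 (chromosome 14, 73183673-73325822, minus strand), the retinoblastoma tumor suppressor gene, had 578.8, 570.1, 532.5 and 482.7 normalized counts in tumors 1 to 4, against 688.7, 699.2, 663.7, 655.6 and 713.4 in the oviducts. The groups did not overlap, and both varied little (coefficient of variation 8.09% in tumors and 3.54% in oviducts). The log2 difference was -0.33 ± 0.11 (SE, adjusted p = 0.0462). It passed the adjusted p in 5 of the 15 alternatives, and in the others the adjusted p was up to 0.172.

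Rbl1 (chromosome 2, 157145893-157204534, minus strand), the pocket protein known as an E2F target in dividing cells, had 176.7, 286.2, 419.9 and 270.3 normalized counts in tumors 1 to 4, against 282.4, 256.0, 273.6, 285.3 and 435.4 in the oviducts. Tumor 1 was the lowest library and tumor 3 and oviduct 5 the highest, so the groups overlapped widely. Its log2 difference was -0.12 ± 0.24 (SE, 95% interval -0.65 to 0.42, adjusted p = 0.753). The sign turned without oviduct 5 (0.01) and without tumor 1 (0.08).

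Several members share exonic bases with a gene on the opposite strand, and the strand setting of the counting is not given in the sources used here, so reads in those bases cannot be told apart. The shared part was 11.8% of the exonic bases of Rbl2 with Gm45464 and 9.17% with Aktip, 11.21% of E2f8 with Gm2788, and 8.11% of Rb1 with Rcbtb2 and 6.78% with Lpar6. It was 1.46% or less for E2f5 and E2f7, and no overlap of exons was annotated for E2f1, E2f2, E2f3, E2f4 and Rbl1.

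**Figure D2:**
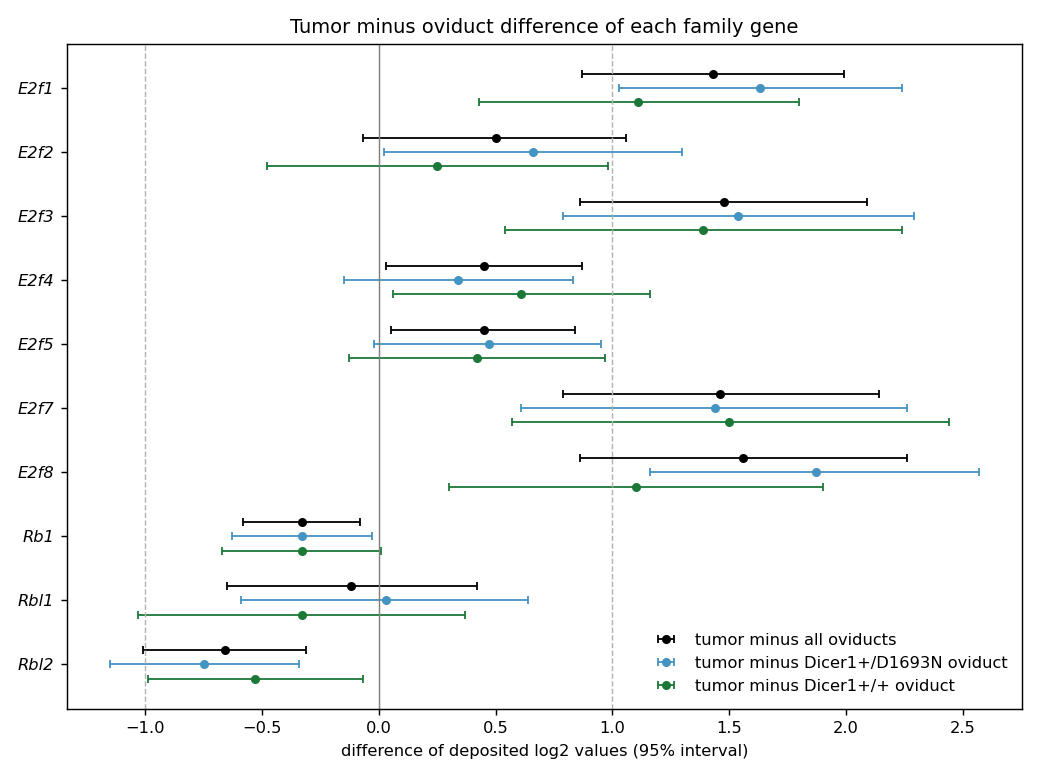
Tumor minus oviduct difference of the deposited log2 values (x axis) for each family gene, against all oviducts (black), the Dicer1+/D1693N oviducts (blue) and the Dicer1+/+ oviducts (green). Points are fitted differences, bars are 95% intervals and dashed lines mark the size threshold of 1, which E2f1, E2f3, E2f7 and E2f8 exceed in each comparison.

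The same tumors were then set against each oviduct genotype, in a model in which all 9 libraries share 1 spread, so the comparisons share the tumors and are no separate evidence. Against the Dicer1+/D1693N oviducts, which carry the same D1693N allele, 4 members were called higher and 0 lower, where 5.17% of all genes were called higher and 11.4% lower. The log2 differences were 1.63 for E2f1 (adjusted p = 0.00254), 1.54 for E2f3 (0.01), 1.44 for E2f7 (0.021) and 1.87 for E2f8 (0.00277). Rbl2 stood at -0.75 (adjusted p = 0.0164), and Rb1 at -0.33 (0.107). The E2f7 call was lost without oviduct 1 (adjusted p = 0.0978) or oviduct 3 (0.076). At an unadjusted p under 0.05, 5 members were higher and 2 lower, with 15.2% of all genes higher and 21.5% lower. limma-voom called 3 members higher and 0 lower, with 3.26% of all genes higher and 16.6% lower.

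Against the 2 Dicer1+/+ oviducts 3 members were called higher and 0 lower, where 4.07% of all genes were called higher and 9.74% lower. These were E2f1 (1.11, adjusted p = 0.0361), E2f3 (1.39, 0.0351) and E2f7 (1.5, 0.0374). E2f8 stood at 1.10 with an adjusted p of 0.065, at 0.54 (0.482) without oviduct 4 and at 1.65 (0.046) without oviduct 5. This count depended on the method and on single libraries. limma-voom called 0 members higher, and 0 to 3 were called when 1 library was left out, with 0 after leaving out any 1 of oviducts 1 to 4 and 1 without oviduct 5 or tumor 2. Of all genes limma-voom called 2.63% higher and 12.5% lower. At an unadjusted p under 0.05, 5 members were higher and 1 lower, beside 12.6% and 18.8% of all genes.

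The comparison of Dicer1+/D1693N with Dicer1+/+ oviducts asks what 1 D1693N allele goes with in tissue without a tumor. No member was called, where 0.00515% of all genes were called higher and 0.0154% lower. None had an unadjusted p under 0.05, where 1.22% of all genes were higher and 1.53% lower, and limma-voom called no member, with 0.0% of all genes higher and 0.0103% lower. The lowest unadjusted p was 0.0684, for E2f8. Its level was 5.6, 9.0 and 10.9 normalized counts in the Dicer1+/D1693N oviducts, against 11.8 and 43.5 in the Dicer1+/+ oviducts, without overlap (log2 difference -0.77 ± 0.37, SE, 95% interval -1.61 to 0.07). That difference was -1.32 without oviduct 4 and -0.22 without oviduct 5. The genotypes did not overlap for 5 members: E2f1, E2f2, E2f8 and Rbl1 were lower in every Dicer1+/D1693N oviduct and E2f4 higher, where 15.7% of all genes were lower in this way and 16.3% higher. The log2 differences were -0.52 ± 0.32 for E2f1, -0.41 ± 0.34 for E2f2, -0.36 ± 0.33 for Rbl1 and 0.27 ± 0.26 for E2f4 (SE). For Rb1 the interval ran from -0.36 to 0.36. The comparison rests on 3 libraries against 2, and the intervals of E2f1 (-1.24 to 0.21) and E2f3 (-1.05 to 0.74) take in differences of over 1.

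Levels of different genes were compared as normalized counts per kb of exon. In tumors E2f5 (254 ± 59.8 per kb, SD, n = 4) and E2f4 (216 ± 49.2) led, followed by Rb1 (89.9 ± 7.27), Rbl2 (82.7 ± 16.1), E2f3 (57.8 ± 26.0), E2f1 (56.0 ± 13.8), Rbl1 (48.1 ± 16.7), E2f2 (18.1 ± 5.72), E2f8 (13.3 ± 1.95) and E2f7 (8.95 ± 4.52). Neighbours in this order overlapped in range, except E2f4 with Rb1 and Rbl1 with E2f2. In oviducts the order was E2f5 (180 ± 19.1 per kb, SD, n = 5), E2f4 (154 ± 22.2), Rbl2 (131 ± 16.9), Rb1 (114 ± 4.02), Rbl1 (51.2 ± 12.2), E2f3 (17.3 ± 4.23), E2f1 (17.1 ± 5.22), E2f2 (11.5 ± 2.70), E2f8 (2.97 ± 2.85) and E2f7 (1.89 ± 0.790). Here the gaps lay on either side of Rbl1, which in tumors overlapped E2f1 and E2f3 and in oviducts was more abundant than every activator. With the length of the longest transcript in place of all exonic bases, E2f4 came before E2f5 in both groups, and Rbl2 was the most abundant member in oviducts at 202 per kb.

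Summed by role, the 3 activators had 132 ± 28.9 normalized counts per kb in tumors (SD, n = 4) and 45.9 ± 10.5 in oviducts (SD, n = 5). E2f7 and E2f8 together had 22.2 ± 3.78 per kb in tumors and 4.87 ± 2.84 in oviducts. E2f4 with E2f5 had 471 ± 59.8 per kb in tumors and 334 ± 35.9 in oviducts, and the 3 pocket genes 221 ± 30.5 in tumors and 296 ± 15.2 in oviducts. Each of these sums was without overlap between the groups.

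The makeup of the E2F pool differed accordingly. Activators made up 21 ± 2.56% of the summed E2F level in tumors and 11.9 ± 2.44% in oviducts, and E2f4 with E2f5 75.3 ± 2.81% in tumors and 86.8 ± 2.94% in oviducts. E2f7 with E2f8 made up 3.63 ± 0.929% in tumors and 1.23 ± 0.602% in oviducts. The sum of the 7 E2F genes over that of the 3 pocket genes was 2.86, 2.81, 2.80 and 2.87 in tumors 1 to 4, against 1.17, 1.34, 1.38, 1.15 and 1.46 in oviducts 1 to 5. The tumors were nearly equal in this ratio (2.83 ± 0.0351, SD) although their E2f3, E2f7 and Rbl1 levels differed by more than 2-fold. They varied more in the ratio of activators to pocket genes, from 0.491 to 0.66. These sums follow from the member levels above and were given no test, and RNA levels do not measure protein or its phosphorylation. The sums and ratios also depend on the length used. With the longest transcript Rbl2 went from 131 to 202 per kb in oviducts while E2f5 stayed at 180, and the ratios with that length are not given here.

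**Figure D3:**
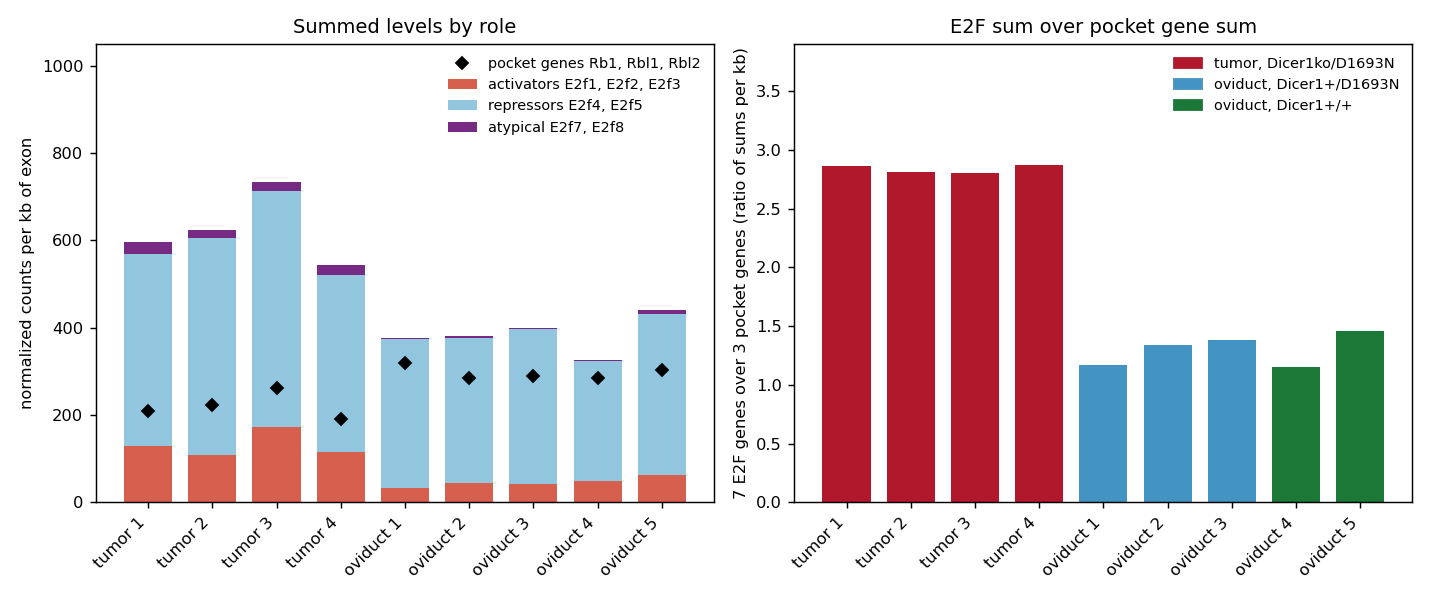
Left, summed normalized counts per kb of exon for the activators, canonical repressors and atypical repressors (stacked bars) and for the 3 pocket genes (diamonds) in each library. Right, the ratio of the E2F sum to the pocket gene sum, 2.80 to 2.87 in the tumors and 1.15 to 1.46 in the oviducts.

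The genes that work with the family were described by lists, in the comparison of tumors with all oviducts. There 6.53% of all genes were called higher and 12.1% lower. By adjusted p alone, 12.6% were higher and 18.5% lower. The DP partners and the repressor E2f6 were not called (0 of 3 in either direction, none at an unadjusted p under 0.05 and none by limma-voom), with a median log2 difference of 0.29. Tfdp1, the main DP partner, had 800 ± 269 normalized counts in tumors (SD, n = 4) and 547 ± 42.2 in oviducts (SD, n = 5). Of the MuvB and DREAM partners 1 of 8 was called higher and 0 lower, with a median of 0.53, and 2 were called higher without oviduct 1, tumor 2 or tumor 4 and with quantile normalization. That gene was Foxm1, a transcription factor of G2 and mitosis, at 272 ± 91.2 in tumors and 21.6 ± 8.29 in oviducts (log2 difference 2.84 ± 0.26, SE). By adjusted p alone 3 of the 8 were higher and 0 lower, which added Lin9 (0.96, adjusted p = 0.0152) and Rbbp4 (0.48, 0.033). At an unadjusted p under 0.05, 5 of the 8 were higher and 1 lower, where 18.1% of all genes were higher and 24.0% lower. Mybl2, which joins MuvB in S phase and is a textbook E2F target, was singled out after its values were seen: it had 56.3 to 84.1 in tumors and 29.0 to 44.2 in oviducts, without overlap, and a log2 difference of 0.62 ± 0.22 (SE, adjusted p = 0.0508). Among corepressors that bind pocket proteins, 0 of 10 were called, limma-voom called none, and the median was 0.19. At an unadjusted p under 0.05, 4 of them were higher, and by adjusted p alone 2 were. Suv39h1, a histone H3 methyltransferase, came nearest at 0.90 ± 0.19 (SE, adjusted p = 0.00542), and was likewise chosen after its value was seen.

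Of the 9 cyclins and kinases that act on pocket proteins 4 were called higher and 0 lower, with a median of 0.95. Ccne1, the cyclin E1 gene and an E2F target, had 263.2, 257.8, 380.5 and 111.5 normalized counts in tumors 1 to 4, against 5.6 to 13.4 in oviducts (log2 difference 3.32 ± 0.32, SE). The others were Ccna2 (2.25 ± 0.19), the cyclin A2 gene, and the D-type cyclin genes Ccnd2 (1.54 ± 0.45) and Ccnd3 (1.02 ± 0.20). Without oviduct 1, 2 of the 9 were called, and without tumor 4, 6 were. By adjusted p alone 7 of the 9 were higher and 0 lower, which added Cdk2 (0.95), Cdk4 (0.71) and Ccne2 (0.86). Of the 7 inhibitors of these kinases 3 were called higher and 0 lower, with a median of 0.78. These were Cdkn2a (3.07 ± 0.52), whose locus gives p16 and p19ARF, and Cdkn1c (2.36 ± 0.66) and Cdkn1a (1.55 ± 0.32), the genes of p57 and p21. Cdkn2a had 554.5, 717.7, 702.5 and 135.7 normalized counts in tumors 1 to 4, against 15.7 to 84.6 in oviducts, and a gene total does not separate its 2 products. For Cdkn1c the groups overlapped, with 273.4 to 4027.2 in tumors and 245.6 to 521.1 in oviducts.

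Of 38 textbook E2F targets 28 were called higher and 0 lower, with a median log2 difference of 1.42. By adjusted p alone 33 were higher and 0 lower, and limma-voom called 27 higher and 0 lower. The named ones were Ccne1, Cdk1 (3.24 ± 0.33, SE), the kinase of mitotic entry, Rrm2 (2.65 ± 0.29), a ribonucleotide reductase subunit, and Mcm5 (2.62 ± 0.26), part of the replicative helicase. Mcm5 had 562 ± 107 normalized counts in tumors (SD, n = 4) and 76.9 ± 28.3 in oviducts (SD, n = 5). Among those not called was Dnmt1 (0.65), the maintenance DNA methyltransferase, chosen after its value was seen. The list shares Cdk1 and Ccna2 with the markers of dividing cells, which were all higher in tumors, and Mki67, a proliferation marker, had 1544.1, 943.7, 2088.5 and 1163.1 in tumors 1 to 4, against 82.6 to 170.2 in oviducts. The part of dividing cells in the levels of the family was not tested.

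In the multiciliated cell program, in which E2F4 and E2F5 act, 10 of 14 genes were called lower and 2 higher, with a median of -1.83. Foxj1, the transcription factor of motile cilia, had 243.8, 15.9, 59.7 and 12.6 normalized counts in tumors 1 to 4, against 4183.7 to 6649.9 in oviducts (log2 difference -6.28 ± 0.54, SE). Trp73 (-5.09 ± 0.28), Ccdc78 (-4.92 ± 0.26) and Rfx2 (-3.19 ± 0.24) fell too. The 2 that rose, Stil (1.79 ± 0.25) and Plk4 (1.42 ± 0.22), serve centriole duplication in dividing cells as well. Gmnc and Mcidas, whose products bind E2F4 or E2F5 in multiciliated cells, were chosen after their values were seen: Gmnc had 17.5, 3.4, 2.3 and 0.0 in tumors 1 to 4, against 36.9 to 189.8 in oviducts, and Mcidas was at 0.0 in tumors 2 to 4 and 2.9 in tumor 1, against 6.0 to 31.3 in oviducts. E2f4 and E2f5 themselves had tumor means of 1.40 and 1.41 times the oviduct means. The summed markers of ciliated cells were 821.6, 101.1, 377.2 and 90.4 normalized counts in tumors 1 to 4, with none of the 8 at 0 in tumor 1, and their part in the E2f4 and E2f5 levels was not tested.

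**Figure D4:**
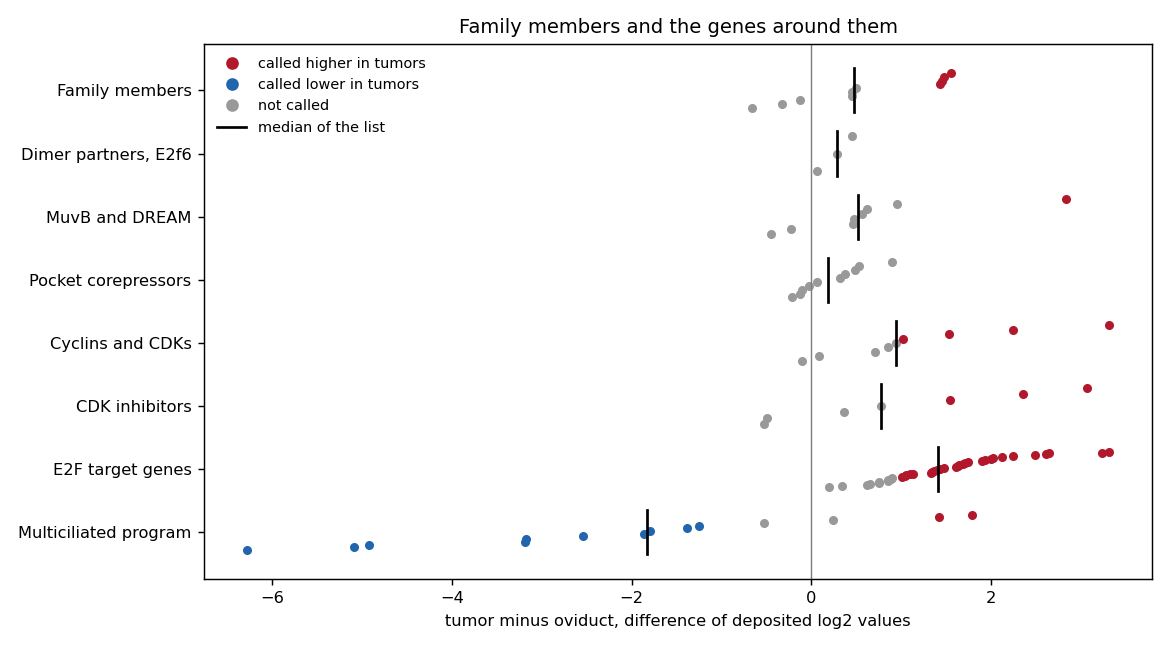
Tumor minus oviduct difference of the deposited log2 values (x axis) for the family members and for 7 lists of genes around them (rows). Points are genes, red called higher, blue called lower and grey not called, and black lines are list medians, from 1.42 for the E2F targets to -1.83 for the multiciliated program.

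The genes most alike each member were sought among 9710 genes in the upper part of the table, by the root mean square difference of the centred log2 values over the 9 libraries. E2f1 was nearest to Dut (0.183), Fam101b (0.207) and Cdc25a (0.207). E2f8 was nearest to Uhrf1 (0.259), Kpna2 (0.285) and Mapk6 (0.301), and E2f3 to Phgdh (0.241), Dusp7 (0.242) and Spast (0.261). E2f7 lay nearest to P4ha2 (0.216), Cdkn1a (0.272) and Plvap (0.274), and its nearest member was E2f1, at 0.452. For every family gene the nearest member was farther off than the 3 nearest genes, with far fewer members than genes to search. The 3 genes nearest to E2f2 all encode ribosomal proteins: Rpl7a (0.093), Rplp2 (0.097) and Rpl11 (0.098). For E2f4 they were Smg8 (0.097), Gnpnat1 (0.102) and Snrnp40 (0.127), and for E2f5 Necap1 (0.072), Vrk1 (0.085) and Ube2d3 (0.089).

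Rb1 was nearest to Lyrm5 (0.060), D630044L22Rik (0.073) and Ercc2 (0.075), Rbl1 to Fam136a (0.150), Aifm1 (0.154) and Cinp (0.157), and Rbl2 to Glcci1 (0.128), Ccdc66 (0.128) and Smarcal1 (0.134). Between members the closest pair was Rb1 and Rbl2 (0.253), followed by E2f4 with E2f5 (0.361) and E2f3 with E2f8 (0.363). This measure takes in the difference between tumors and oviducts, and is small for any gene that varies little.

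Seed matches of 3 miRNA families were looked up in the longest annotated 3′ UTR of each member (GENCODE M21, GRCm38), because DICER1 makes miRNAs and these families are known to target cell cycle genes. miRNAs themselves are not analysed here. The mature sequences, from RefSeq (GRCm38.p6) with the seed, bases 2 to 8, in capitals, were as follows.
mmu-let-7a-5p: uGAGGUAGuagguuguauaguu
mmu-miR-17-5p: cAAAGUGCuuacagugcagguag
mmu-miR-34a-5p: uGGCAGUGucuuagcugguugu
mmu-miR-449a-5p: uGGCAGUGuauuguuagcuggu
The last 2 share a seed and were counted as 1 family. The let-7 match CTACCTC stood in 9.18% of 20659 UTRs and in 3 members, the miR-17 match GCACTTT in 11.98% and in 7 members, and the miR-34 and miR-449 match CACTGCC in 14.52% and in 3 members. Sites are printed for members called higher, and examples for E2f2 and Rbl2, on the strand of the gene and with the match in capitals.
E2f1, miR-17 (chr2:154560207-154560233, minus strand): gggtgggctctaactGCACTTTtggtg
E2f1, miR-17 (chr2:154559692-154559718, minus strand): cccaccctccagtctGCACTTTgattt
E2f3, miR-17 (chr13:29908073-29908099, minus strand): agacagaagacaccgGCACTTTaaact
E2f3, miR-34 and miR-449 (chr13:29909184-29909210, minus strand): tccataccccacttcCACTGCCcccat
E2f3, miR-34 and miR-449 (chr13:29907160-29907186, minus strand): caattcatttgtaaaCACTGCCagaat
E2f7, let-7 (chr10:110786985-110787011, plus strand): cactgaggggatgtgCTACCTCaaacc
E2f2, let-7 (chr4:136193039-136193065, plus strand): gcgtcctgcatctgtCTACCTCctcac
Rbl2, miR-17 (chr8:91123136-91123162, plus strand): cctgtgtaattggtgGCACTTTatggc
Rbl2, miR-17 (chr8:91123197-91123223, plus strand): tgtatatttatgatgGCACTTTctatg
The let-7 match was in E2f2, E2f5 and E2f7, with log2 differences of 0.50, 0.45 and 1.46 in tumors against oviducts. The miR-17 match was in E2f1, E2f2, E2f3, E2f5, Rb1, Rbl1 and Rbl2, which include members called higher, not called and below the oviducts. E2f4 and E2f8 held none of the 3 matches, and E2f8 was called higher. UTR length differs widely between members, from 592 bases in E2f5 to 3328 in E2f3, and a longer UTR offers more positions for any 7-base string. E2f5, with the shortest UTR, still held all 3 matches.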

How the data were processed

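Poly-A RNA was sequenced from 4 Dicer1ko/D1693N tumors and 5 oviducts of mice. The submitters' processing notes name FastQC 0.11.5, STAR 2.5.3a, HTSeq and the build GRCm38 (mm10), and the annotation and strand setting are not given in the sources used here. The deposited table holds log2 values with a shared floor of 3.427, and no label names the transformation. Their inverse as variance-stabilized counts came out whole, after a scale factor for each library, in 100% of cells (tolerance 0.05 reads), and read totals and normalized counts were taken from this. Every gene had at least 10 reads in total, and changes of genes with few reads are understated on this scale.

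The log2 values as deposited went into limma 3.58.1 (R 4.3.3), with its two-sided moderated test, a trended prior variance and Benjamini-Hochberg adjustment over 19435 genes, and with a 2-group model for tumors against oviducts and a 3-group model for the genotypes. The scripts were tested on simulated data. Replicate numbers pair no samples by the labels, and deviations of same-numbered libraries correlated at 0.117, 0.061, -0.089 and 0.006, and they were not treated as pairs. The labels give no batch. The members, gene lists and tests were chosen with earlier results of these data known. Named were all members, up to 4 called genes per list and direction, Dicer1, Mki67 and Foxj1, and the 3 genes most alike each member. Gene models came from GENCODE M21. Alternatives were quantile normalization, limma-voom on the recovered reads, log2(CPM + 1), a filter at a mean of 10 normalized counts, no variance trend, adjusted p alone, a replicate block and each library left out.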

Additional observations from a re-analysis of the deposited data

Results flagged for a closer look

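Each member's deposited log2 values were searched for a library far from the rest of its group, in 20 groups (10 members in tumors and in oviducts), of which chance flags about 1 in 20. In 3 of them the gap to the nearest library, over the range of the group, passed Dixon's 95% critical value, which is 0.71 for 5 libraries. E2f4 was lowest in oviduct 4, at a log2 value of 8.25 (gap over range 0.852). E2f8 was highest in oviduct 5, at 5.98 (0.72), and so was Rbl1, at 8.84 (0.799). No tumor group was flagged. Both oviducts are Dicer1+/+, the genotype with 2 libraries. Tumors minus oviducts was 0.35 for E2f4 without oviduct 4 (adjusted p = 0.201), and 1.81 for E2f8 (adjusted p = 0.000533) and 0.01 for Rbl1 without oviduct 5.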

How the results depend on the processing

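For tumors against all oviducts, the 4 members called higher and the 0 called lower held under all settings and with each library left out (4 to 4 and 0 to 0), except that adjusted p alone gave 2 lower. The whole table gave 1269 higher and 2356 lower calls, 1058 to 1585 and 2192 to 2585 with 1 library left out, and 2446 and 3605 by adjusted p alone. The median change of all genes was -0.048, against 0.078 with quantile normalization, -0.223 with limma-voom and -0.135 on log2(CPM + 1). Rb1 stood at -0.34, -0.48 and -0.47 under these 3, and Rbl2 at -0.69, -0.82 and -0.81. The sign of Rbl1 turned under the replicate block (0.01), without oviduct 5 (0.01) and without tumor 1 (0.08).

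Against Dicer1+/D1693N oviducts, 1004 genes were called higher, 1691 by adjusted p alone, 634 by limma-voom and 582 to 1416 with 1 library left out. Adjusted p alone gave 1 member lower, and E2f7 lost its call with limma-voom (adjusted p = 0.0534) and the replicate block (0.081). Rbl1 turned to -0.15 with limma-voom, -0.12 on log2(CPM + 1), -0.009 without oviduct 2 and -0.16 without tumor 3, with -0.16 to 0.22 over the left-out libraries. Against Dicer1+/+ oviducts, 3 members were called higher, 0 with limma-voom, 1 on log2(CPM + 1), 0 under the replicate block and 0 to 3 with 1 library left out. Over all genes 791 were higher and 1892 lower, 511 higher with limma-voom, 115 higher and 527 lower under the replicate block, and 218 to 1314 and 905 to 2256 with 1 library left out. E2f8 gained a call with quantile normalization (adjusted p = 0.0417) and without the variance trend (0.0424).

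Between the oviduct genotypes 1 gene was called higher and 3 lower: 0 higher with limma-voom, 1 lower under the replicate block, and 0 to 1 and 0 to 3 with 1 library left out. Signs turned for E2f3 (0.38 under the block, 0.20 without oviduct 5), E2f5 (0.01 with limma-voom, 0.14 without oviduct 5), E2f7 (-0.003 with quantile normalization, -0.005 under the block, -0.15 without oviduct 2), E2f8 (0.005 under the block), Rbl2 (-0.31 under the block) and Rb1 (0.01 with quantile normalization, 0.05 with limma-voom, 0.04 on log2(CPM + 1), 0.02 and 0.06 without oviducts 3 and 5). With 1 library left out these ran from -0.50 to 0.20 for E2f3, -0.23 to 0.14 for E2f5, -0.15 to 0.28 for E2f7 and -0.06 to 0.06 for Rb1. None of these was called. The causes were not tested. The replicate block pairs libraries by a number that no label ties to a shared animal or batch. Where a lone Dicer1+/+ oviduct was left, it is assumed to vary like the other groups. Depth limits E2f7 and E2f8 in oviducts, where oviduct 1 held under 10 reads of each.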

Other observations

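Oviduct 5, a Dicer1+/+ library, had the highest level of the 5 oviducts for 7 of the 10 members and the lowest for Rbl2. It was also the highest for 8 of the 14 genes of the multiciliated program and for 20 of the 38 E2F targets, and the lowest for 6 of those 38, while it was the highest oviduct for 24.5% and the lowest for 24.2% of all genes. Gmnc had 189.8 normalized counts in oviduct 5, against 36.9 to 92.8 in the other oviducts, and Mcidas 31.3, against 6.0 to 18.1. E2f8 had 43.5, against 5.6 to 11.8. The sum of the markers of dividing cells was 578.3 in oviduct 5, within the 347.2 to 635.9 of the oviducts, and Foxj1 was 6435.2, below the 6649.9 of oviduct 3. These genes were picked after their values were seen, and the pattern was given no test.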
